A study of Sus scrofa with 88 samples.

Results

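The genes described here are MYOD1, MYH7, LMCD1, ITGB1 and ACVR2B, which stand for the regulation of muscle formation, the sarcomere and the anchoring of muscle fibers. They were taken by name, as the spots whose gene symbol in the array's probe annotation is 1 of these 5. The 5 names were chosen with earlier results of these data known. The annotation gave a symbol to 178 of 20736 spots, covering 175 genes, and each of the 5 genes had 1 spot. MYOD1 was spot 9028 (Entrez gene 407604), MYH7 was spot 6868 (396860), LMCD1 was spot 11188 (494020), ITGB1 was spot 10758 (397019) and ACVR2B was spot 6003 (448845).

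Loin muscle RNA of 176 F2 pigs of a Duroc x Pietrain cross was measured on 88 2-color arrays of long oligonucleotides. Each array held 2 sisters or 2 brothers, a high and a low pig for the trait that served to select within their litter. For 24 litters that trait was loin muscle area (LMA), which gave 24 female and 24 male arrays, and for 20 litters it was backfat depth at the 10th rib (BF), which gave 20 female and 20 male arrays. No group was treated or carried an engineered allele, all pigs shared the cross, and the high pig carried Cy3 on 47 arrays and Cy5 on 41. Every value is a normalized log2 ratio between the littermates on an array, so a value of 1 or -1 is a 2-fold difference, and the level in a single pig was not analysed here. The sources do not state which pig is the numerator. The ratios ran in 1 fixed high-low order throughout, so the signs below are relative, and a ratio above 0 stands for more RNA in the numerator pig. Because loin tissue holds several cell types, fewer cells of a type and less RNA per cell cannot be told apart in these ratios.

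The SD of the ratios over the spots of an array had a median of 0.222 and ranged from 0.133 to 0.660. It was above 0.4 on 4 arrays, all of them LMA (the female arrays of litters 32, 54 and 12 and the male array of litter 56), and these are called the wide arrays below. The named spots lay close together in the print layout. If the 20736 spots are taken as 48 blocks of 432, all 178 named spots fell between positions 386 and 391 of their blocks. MYOD1, MYH7 and LMCD1 were at position 388 of blocks 21, 16 and 26, ITGB1 was at position 390 of block 25 and ACVR2B at position 387 of block 14. The members were therefore printed in different blocks. The level of a spot cannot be set against that of another on such an array, so the genes were compared by the spread of their ratios and by how these moved together.

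MYOD1 encodes a basic helix-loop-helix transcription factor that commits cells to the myogenic lineage and is also transcribed in adult muscle. MYH7 encodes the beta myosin heavy chain, the motor protein of thick filaments in slow fibers. LMCD1 encodes a LIM-domain protein that in mice limits the transcription factor GATA6 and acts with calcineurin signaling in muscle. ITGB1 encodes the integrin beta chain shared by the laminin and collagen receptors that anchor fibers to the surrounding matrix. ACVR2B encodes a type II receptor for activins and myostatin, the ligands that restrain muscle growth.

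Littermates differed widely in LMCD1, ITGB1, MYOD1 and MYH7 and little in ACVR2B. The measure of spread was the residual SD, which is the SD of a spot's ratios after the terms for dye, LMA and BF were removed. Over all spots its median was 0.137, and over the named spots it was 0.159.

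LMCD1 had the widest ratios of the 5 genes. They ran from -2.53 over a median of 0.06 to 3.23, where the highest value is a 9.39-fold difference between littermates. The residual SD was 1.00, above that of 99.8% of spots, and 0 of the other named spots had a larger value. The difference was beyond 2-fold on 26 of 88 arrays, 18 with a positive and 8 with a negative sign. Of all spots, 0.289% were beyond 2-fold on as many arrays, and 76.6% were so on none.

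LMCD1 was wide in each group. In female LMA pairs its ratios had the lowest, median and highest values -1.41, 0.29 and 3.23, with a mean of 0.35 ± 1.14 (SD, n = 24). In male LMA pairs these were -2.53, -0.13 and 1.79, with a mean of -0.14 ± 1.05 (SD, n = 24). The female and male arrays overlapped over most of their range. In female BF pairs the values were -0.44, 0.26 and 1.43, with a mean of 0.38 ± 0.59 (SD, n = 20). In male BF pairs they were -1.63, 0.07 and 2.45, with a mean of 0.18 ± 1.03 (SD, n = 20). The female BF arrays thus formed the narrowest group, and every group contained ratios of both signs.

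ITGB1 ranged from -2.44 over a median of -0.03 to 1.99, and its residual SD of 0.63 was above that of 98.2% of spots. It was beyond 2-fold on 6 arrays, 4 positive and 2 negative, and 3.73% of spots were so on as many. Without the wide arrays its spread was above that of 98.4% of spots, so its rank among spots did not rest on these arrays. Its lowest value stood apart from the next lowest and came from the male LMA array of litter 56, a wide array. The group mean was 0.0025 ± 0.76 (SD, n = 24) for female LMA pairs and -0.24 ± 0.63 (SD, n = 24) for male LMA pairs. In BF pairs it was 0.14 ± 0.54 (SD, n = 20) among females and -0.01 ± 0.51 (SD, n = 20) among males. Without its farthest array, the mean of the male LMA pairs was -0.14.

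MYOD1 ranged from -1.16 over a median of -0.02 to 1.38, with a residual SD of 0.50, above that of 96.1% of spots. It was beyond 2-fold on 7 arrays, 3 positive and 4 negative, against 2.96% of spots with as many. The mean was 0.08 ± 0.61 (SD, n = 24) for female LMA pairs, -0.09 ± 0.60 (SD, n = 24) for male LMA pairs, 0.06 ± 0.32 (SD, n = 20) for female BF pairs and 0.03 ± 0.52 (SD, n = 20) for male BF pairs. In the female BF pairs the ratios stayed between -0.47 and 0.67, so 0 of these 20 arrays were beyond 2-fold. The groups overlapped, and MYOD1 was above 0 on 43 of 88 arrays.

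MYH7 ranged from -1.29 over a median of 0.06 to 1.42, and its residual SD of 0.49 was above that of 95.9% of spots. It was beyond 2-fold on 6 arrays, 3 in each direction, and 3.73% of spots were so on as many. Both extremes came from male BF pairs, of litters 131 and 139, and neither was a wide array. The group means were 0.12 ± 0.47 (SD, n = 24) in female LMA, 0.11 ± 0.47 (SD, n = 24) in male LMA, 0.04 ± 0.55 (SD, n = 20) in female BF and -0.01 ± 0.59 (SD, n = 20) in male BF pairs. These means differed by less than the SD of any group.

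ACVR2B was the exception. Its ratios stayed between -0.27 and 0.21 around a median of 0.00, and its residual SD of 0.11 was above that of 39.4% of spots. On 0 of 88 arrays was it beyond 2-fold, which held for 76.6% of all spots, and its group means lay between -0.01 and 0.02. Channel intensities were not analysed here, so how far this narrow range goes with the signal of the probe was not tested.

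**Figure D1:**
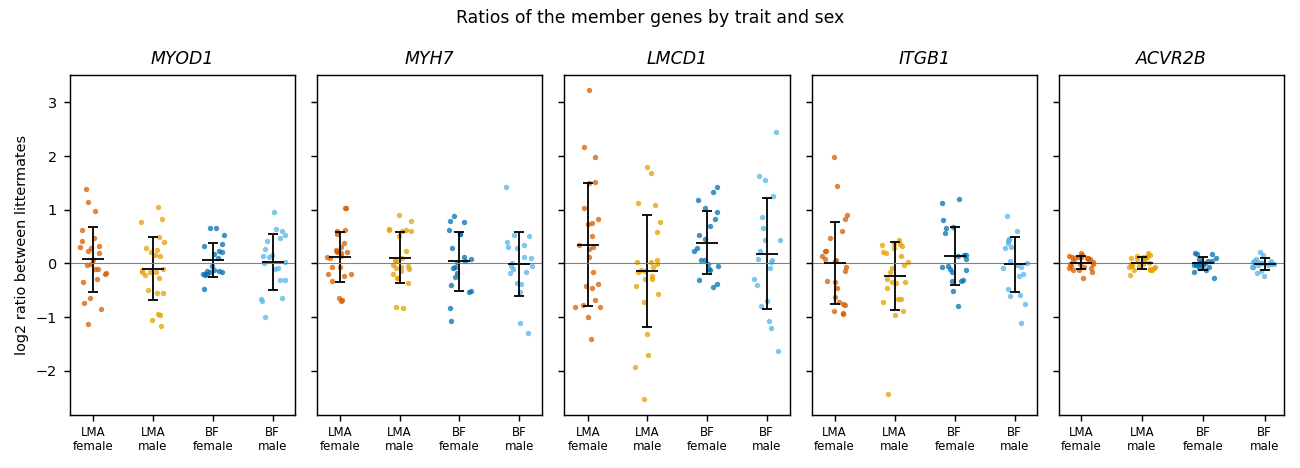
Log2 ratio between littermates for each gene and array (points), by trait and sex, with the mean and SD of each group (bars). LMCD1 ran from -2.53 to 3.23, and ACVR2B stayed between -0.27 and 0.21.

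**Figure D2:**
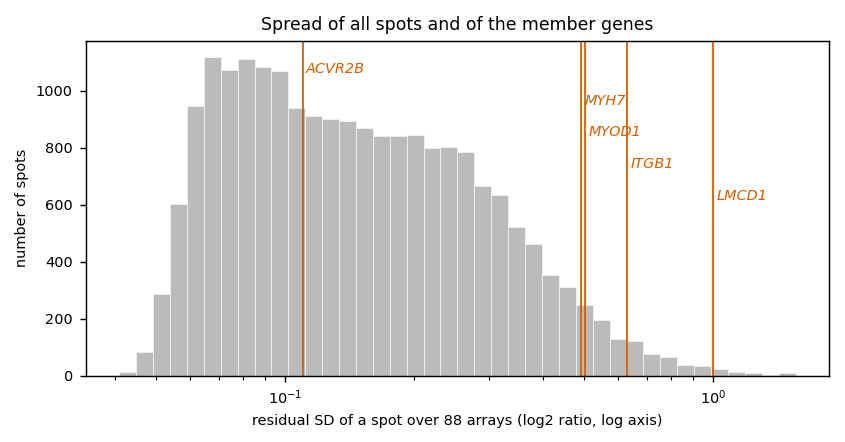
Number of spots by residual SD of the log2 ratio (logarithmic axis) over all 20736 spots, with the 5 genes as vertical lines. LMCD1 lay above 99.8% of spots and ACVR2B above 39.4%.

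The order of the spreads was compared between neighbors by the absolute residual on each array, with two-sided permutation tests that flip the sign of the difference between the genes (100000 permutations, 4 comparisons, Benjamini-Hochberg adjusted). LMCD1 was wider than ITGB1 by 0.277 ± 0.07 (SE) in mean absolute residual, on 55 of 88 arrays (permutation adjusted p = 4e-05). ITGB1 was wider than MYOD1 by 0.107 ± 0.05 (SE), on 57 arrays (permutation adjusted p = 0.0305). MYH7 was wider than ACVR2B by 0.293 ± 0.03 (SE), on 74 arrays (permutation adjusted p = 4e-05). MYOD1 and MYH7 did not differ beyond their spread, with a difference of -0.02 ± 0.05 (SE, permutation adjusted p = 0.743). The order, and so the pairs compared, was taken from the residual SD of these same arrays. The p values therefore give the order no separate support. These tests compare spots, and how strongly each oligonucleotide responds to its transcript was not tested.

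The spread of a gene was also compared between LMA and BF pairs and between male and female pairs, in 10 permutation tests, of which 0 passed after adjustment (adjusted p from 0.592 to 0.803) and 0 had an unadjusted p under 0.05. Arrays were permuted as if independent, although the female and the male array of a litter shared the trait. The mean absolute residual of LMCD1 was 0.838 in LMA and 0.640 in BF pairs, and that of MYOD1 was 0.415 and 0.303 (unadjusted permutation p = 0.152 and 0.118). Within female arrays alone, LMA minus BF was 0.424 for LMCD1 and 0.258 for MYOD1 (unadjusted permutation p = 0.0170 and 0.0147). Within BF arrays, male minus female was 0.340 for LMCD1 and 0.201 for MYOD1 (unadjusted permutation p = 0.0375 and 0.00973). None of these 4 passed after adjustment over the 20 such comparisons (permutation adjusted p from 0.113 to 0.187). The female LMA pairs include the wide arrays of litters 32, 54 and 12, where LMCD1 was at 2.16, 1.51 and -1.41. The comparison within female arrays was not repeated without them.

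The comparison of high with low littermates asked whether the genes followed the trait that set the pair apart. For LMA and for BF, 0 of the 5 genes passed in limma, which compares with 0% of all spots (percent called 0 for each, adjusted p under 0.05 over all spots). At an unadjusted p under 0.05, limma gave 871 of 20736 spots for LMA and 772 for BF, none of them a member.

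In the fit of all arrays, the LMA coefficient was largest in size for ITGB1 and MYH7, and each interval included 0. It was -0.12 (95% interval -0.30 to 0.06) for ITGB1 and 0.11 (-0.03 to 0.25) for MYH7, with unadjusted limma p of 0.196 and 0.107. LMCD1 had 0.11 (-0.18 to 0.39), MYOD1 -0.01 (-0.15 to 0.13) and ACVR2B 0.01 (-0.02 to 0.04). For ITGB1, the interval left out 0 when male arrays were fitted alone (-0.47 to -0.0019, unadjusted limma p = 0.0482, limma adjusted p = 0.912). The mean ITGB1 ratio of these male LMA pairs was -0.24, and -0.14 without the wide array of litter 56. In female arrays alone the ITGB1 coefficient was 0.0025 (-0.27 to 0.28). The intervals are widest where littermates differed most, so an LMA difference in LMCD1 of up to 0.39 is within the precision of these arrays.

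The BF coefficient was largest for LMCD1, at 0.27 (95% interval -0.04 to 0.58, unadjusted limma p = 0.0881). Its interval left out 0 when BF arrays were fitted alone (0.0070 to 0.54, unadjusted limma p = 0.0446) and with array weights (0.0037 to 0.53, unadjusted limma p = 0.0469), and its limma adjusted p was 0.99 and 0.703. LMCD1 was above 0 on 25 of 40 BF arrays and on 23 of 48 LMA arrays. The other genes had BF coefficients of 0.05 (-0.14 to 0.25) for ITGB1, 0.04 (-0.12 to 0.19) for MYH7, 0.02 (-0.14 to 0.18) for MYOD1 and -0.01 (-0.04 to 0.03) for ACVR2B. For ACVR2B, the intervals leave room only for small differences in the measured ratio, of at most 0.04 in either direction for both traits. How far this goes with the signal of its probe was not tested.

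The coefficients for LMA and BF were compared with each other in the same fit, where 0 of 5 genes passed (percent called 0 over all spots, 891 spots at an unadjusted limma p under 0.05). The difference was -0.17 for ITGB1 (95% interval -0.44 to 0.09) and -0.17 for LMCD1 (-0.59 to 0.26), with unadjusted limma p of 0.203 and 0.439. Male minus female coefficients were also without a call among the 5 genes in LMA or BF pairs (percent called 0 in each, 1508 and 887 spots at an unadjusted limma p under 0.05). LMCD1 had the largest of these, -0.49 in LMA pairs (95% interval -1.05 to 0.07, limma adjusted p = 0.709). It was -0.33 without the wide arrays and -0.24 with array weights.

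The dye term stands beside these values because a spot that follows the dye has ratios that depend on which pig carried which dye. In limma, 61.1% of all spots passed for dye and so did 2 of the 5 genes. MYOD1 had a dye coefficient of -0.17 (95% interval -0.28 to -0.06, limma adjusted p = 0.00405), and with its ratios taken in dye order it was above 0 on 28 of 88 arrays. MYH7 had 0.15 (0.05 to 0.25, limma adjusted p = 0.00953) and was above 0 on 55 arrays. For LMCD1, ITGB1 and ACVR2B the coefficients were -0.07, -0.05 and -0.02, with intervals that included 0.

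**Figure D3:**
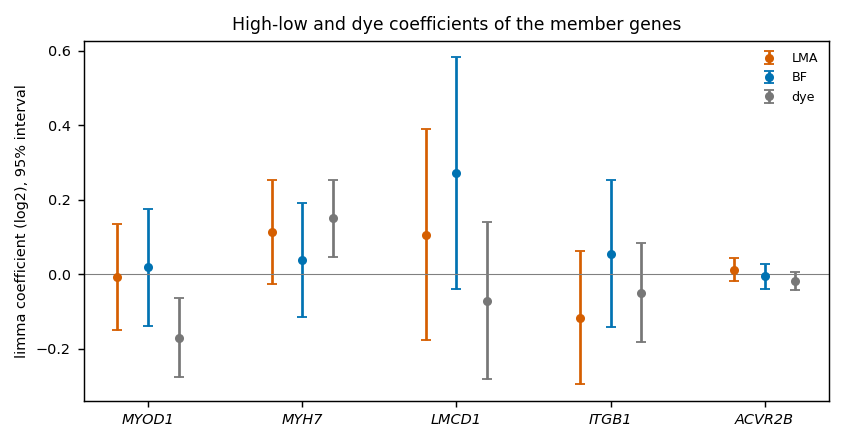
Coefficients of the limma fit for LMA, BF and dye (points, log2 ratio) with 95% intervals (bars) for each gene. In the fit shown, all LMA and BF intervals include 0, and the dye intervals of MYOD1 and MYH7 do not.

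MYOD1, LMCD1 and ITGB1 went together from pair to pair, whereas MYH7 and ACVR2B did not clearly join them. The residuals of the 10 pairs of genes were correlated over the 88 arrays, and p came from two-sided permutation tests, adjusted over the 10 pairs. In these tests 3 pairs passed by Pearson's r and 4 by Spearman's rho. Arrays of a litter were permuted as if independent, and the same 3 pairs also passed when the means of the 44 litters were used.

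MYOD1 and LMCD1 had r = 0.705 and rho = 0.589 (permutation adjusted p = 5e-05 for each, where the unadjusted 1e-05 is the smallest that 100000 permutations can give). This r was above 99.98% of the r of MYOD1 with all other spots and above 99.93% of those of LMCD1. They had the same sign of ratio on 59 of 88 arrays. The correlation was 0.730 in LMA, 0.650 in BF, 0.586 in male and 0.830 in female arrays, 0.660 without the 2 arrays farthest out and 0.648 without the wide arrays. On the arrays where LMCD1 was beyond 2-fold, MYOD1 had the same sign on 22 of 26, and on 18 of 22 when the wide arrays were left out. MYOD1 moved less than LMCD1, with a slope of 0.355 on the residual of LMCD1.

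MYOD1 and ITGB1 had r = 0.537 and rho = 0.485 (permutation adjusted p = 5e-05 for each). The r was 0.553 in LMA and 0.50 in BF arrays, 0.546 without the 2 arrays farthest out and 0.501 without the wide arrays. The r over all arrays was above 97.6% of the r of MYOD1 with all other spots, of which 645 had a larger size of r. LMCD1 and ITGB1 had r = 0.467 (permutation adjusted p = 6.67e-05) and rho = 0.350 (permutation adjusted p = 0.00323). Their r was 0.506 in LMA and 0.382 in BF arrays, 0.417 without the 2 arrays farthest out, 0.358 without the wide arrays, and 0.362 in male arrays alone, where it did not pass (permutation adjusted p = 0.0528). The r over all arrays was above 94.7% of the r of LMCD1 with all other spots, of which 1449 had a larger size of r, so a correlation of this size was common for LMCD1. Over all 88 arrays, the 3 genes shared a sign on 40.

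Single arrays show the pattern and its exceptions. In the female LMA pair of litter 53, LMCD1 was at 1.99, ITGB1 at 1.99 and MYOD1 at 1.38, while MYH7 was at -0.21. In the male LMA pair of litter 56, a wide array, LMCD1 was at -2.53, ITGB1 at -2.44 and MYOD1 at -1.16. The pair with the highest LMCD1, the females of litter 42, departed from this, because ITGB1 was at 0.08 beside LMCD1 at 3.23, MYOD1 at 1.15 and MYH7 at 1.04.

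MYH7 went with none of the other genes past the threshold. Its r was 0.145 with LMCD1, 0.110 with MYOD1, 0.0054 with ITGB1 and -0.03 with ACVR2B. ACVR2B had negative values of r with all 4 other genes. With MYOD1 its r was -0.21 (permutation adjusted p = 0.141) and its rho -0.30 (permutation adjusted p = 0.0131), so that this pair passed by rank alone. With ITGB1 and LMCD1 it had r of -0.18 and -0.11.

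**Figure D4:**
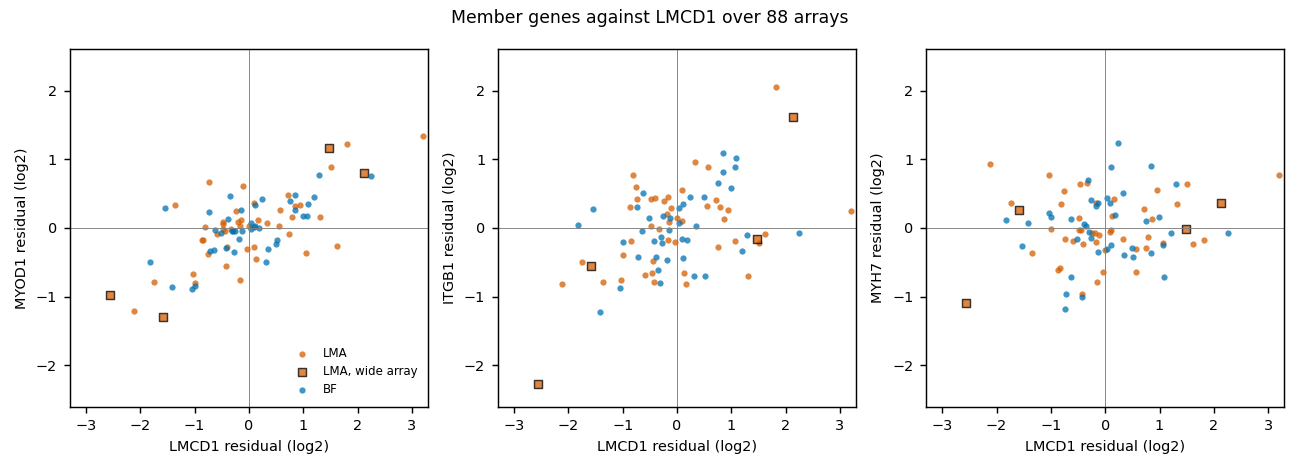
Residuals (log2 ratio) of MYOD1, ITGB1 and MYH7 against those of LMCD1, with each point an array, LMA in orange, BF in blue and wide arrays as squares. MYOD1 and ITGB1 followed LMCD1 with r of 0.705 and 0.467, and MYH7 did not, with r of 0.145.

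Many unnamed spots followed the same pattern, and this belongs beside these correlations. Principal components of the residuals of all other spots were computed, and the leading component held 14.5% of their variance. Its correlation over arrays was 0.666 with MYOD1, 0.637 with LMCD1, 0.490 with ITGB1, 0.201 with MYH7 and -0.28 with ACVR2B, given as a description. MYH7 went with the next component (8.35% of variance) at 0.542. After the leading component was removed, the correlation of MYOD1 and LMCD1 was 0.488 and that of MYOD1 and ITGB1 0.324, which still passed (permutation adjusted p = 1e-04 and 0.0095). That of LMCD1 and ITGB1 fell to 0.230 and no longer passed (permutation adjusted p = 0.104). What the component stands for was not tested.

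The print layout was also set beside the correlations. MYOD1 and LMCD1 shared the position in their blocks with 47 spots each, and the median r with these was -0.09 for MYOD1 and -0.10 for LMCD1. MYH7 was at this position as well and had r of 0.110 and 0.145 with them. The median r with the other spots of its own block was -0.05 for MYOD1, -0.05 for LMCD1 and -0.04 for ITGB1. Neighboring spots were less even, because the spots directly beside ITGB1 had r of -0.43 and 0.510 with it and those beside MYOD1 -0.52 and -0.33.

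For each gene, the 3 named spots most like it were taken by the size of r over the 88 arrays, as a description. For MYOD1 these were LMCD1, FOLR1, a folate receptor, at 0.604, and PR39, an antibacterial peptide of neutrophils, at -0.58. For LMCD1 they were MYOD1, RPN2, a subunit of the oligosaccharyltransferase, at 0.587, and INHA, the inhibin alpha chain, at 0.536. ITGB1 was most like ACBD3, a Golgi protein, at 0.672, followed by MYOD1 and LMCD1. MYH7 was most like RPN2 at 0.537, followed by SCAMP1, a membrane protein of secretory carriers, at 0.431, and by the phosphatidylinositol kinase PIK3C3 at -0.43. ACVR2B was most like TNFSF8, a cytokine of lymphocytes, at 0.535, DSG1, a desmosomal cadherin, at 0.495, and ODF1, a sperm tail protein, at 0.438. No gene of the sarcomere or of fiber adhesion other than the members was among these, as none had a named spot.

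The pathways and cell types around the 5 genes were covered thinly. Of 167 genes in 12 lists, 20 had a named spot, and 15 of these were not members. The lists of muscle growth factors and of fibroblasts and matrix had 0 genes with a named spot. For myogenic regulation, the sarcomere and fiber adhesion, MYOD1, MYH7 and ITGB1 were the only genes with one. Other genes of these lists may be among the 20558 spots without a symbol. For LMA and BF, 0 of the 15 genes passed in limma. KCNA5, a potassium channel, had an unadjusted limma p under 0.05 for both traits (0.0271 and 0.0122). So did PLIN1, which coats lipid droplets, for LMA (0.0128) and GLRB, a glycine receptor subunit, for BF (0.0316). The limma adjusted p of these genes was 0.9996 for LMA and 0.9995 for BF. Among all 20736 spots, 871 for LMA and 772 for BF had an unadjusted limma p under 0.05.

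Against these 15 genes, 75 correlations were tested by permutation and adjusted over the 75. LMCD1 passed with 8 of the 15, MYOD1 with 7, MYH7 and ITGB1 with 3 each and ACVR2B with 1. By rho the counts were 6, 5, 3, 1 and 1 in the same order. Correlations of that size were common over the array. Of all other spots, 34.8% had an r with LMCD1 at least as large in size as the smallest that passed, 32.5% with MYOD1, 20.3% with MYH7, 23.5% with ITGB1 and 8.22% with ACVR2B. For MYH7, ITGB1 and ACVR2B, the listed genes passed no more often than these shares. Without the wide arrays, LMCD1 and MYOD1 passed with 4 each by r, MYH7 with 3, ITGB1 with 1 and ACVR2B with 2. By rho LMCD1 and MYOD1 then passed with 5 each and MYH7, ITGB1 and ACVR2B with 1 each. The share over all spots was not computed for the counts by rho or without the wide arrays, so these have no background beside them. Several of the listed genes went with MYOD1 and LMCD1 alike, and the leading component was not removed here.

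In the activin list, INHA had r of 0.514 with MYOD1 and 0.536 with LMCD1 (permutation adjusted p = 0.00015 for each) and of 0.342 with MYH7 (permutation adjusted p = 0.00702). The values for MYOD1 and LMCD1 were 0.363 and 0.420 without the wide arrays. The central 95% of the r with all other spots ran from -0.47 to 0.534 for MYOD1 and from -0.44 to 0.541 for LMCD1, so both values lay inside it. With the receptor ACVR2B, INHA had r of 0.0620 (permutation adjusted p = 0.676). BMP15, an oocyte growth factor of the same family, had r of -0.27 with MYH7 (permutation adjusted p = 0.0385). The residual SD of BMP15 was only 0.06, above that of 8.31% of spots. GATA6, the factor that LMCD1 limits in mice, had r of -0.10 with LMCD1 (permutation adjusted p = 0.537) and a residual SD of 0.06.

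Of the mitochondrial genes, ACADS, a short-chain acyl-CoA dehydrogenase, had r of -0.47 with LMCD1 (permutation adjusted p = 0.00015), which was -0.59 in LMA and -0.19 in BF arrays. ATP5G1, a subunit of ATP synthase, had r of -0.40 with LMCD1 (permutation adjusted p = 0.00131), -0.41 in LMA and -0.37 in BF arrays. With MYH7, the slow-fiber myosin, both were near 0, at -0.04 and 0.0620. MYOD1 had r of -0.33 with each of them. With ACADS, printed next to MYOD1, it was -0.44 in LMA and -0.06 in BF arrays, and -0.23 without the wide arrays, where it did not pass (permutation adjusted p = 0.101). With ATP5G1 it was -0.44 in LMA and -0.09 in BF arrays, and -0.34 without the wide arrays. Whether these correlations differ between the traits was not tested.

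Markers of other cell types in the tissue moved with some members, and their part in the correlations between members was not tested. PLIN1, of adipocytes, had r of 0.282 with LMCD1 (permutation adjusted p = 0.0382). Its rho of 0.160 did not pass, nor did its r of 0.248 without the wide arrays. RETN, another adipocyte gene, went the other way with LMCD1, at -0.27, and with MYOD1, at -0.32. Without the wide arrays neither passed by r (-0.24 and -0.27). By rho RETN still passed there with MYOD1 (-0.30, permutation adjusted p = 0.0351) but not with LMCD1 (-0.23, permutation adjusted p = 0.171). ADIG, a regulator of adipocyte formation, had r of 0.296 with ACVR2B (permutation adjusted p = 0.0254). The adipocyte genes thus shared no direction.

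Among leukocyte genes, PSMB8, an immunoproteasome subunit, had r of 0.440 with MYOD1 and 0.366 with LMCD1, and the latter was 0.606 in LMA but 0.0328 in BF arrays. Without the wide arrays PSMB8 had r of 0.286 with MYOD1 (permutation adjusted p = 0.0492) and 0.227 with LMCD1 (permutation adjusted p = 0.119). The rho there was 0.312 and 0.295 (permutation adjusted p = 0.0343 and 0.0397). TYROBP, a signaling adaptor of myeloid cells, had r of -0.35 with MYH7 (permutation adjusted p = 0.0054). CD4 did not pass with any member. For blood, HBE1, an embryonic globin, had r of -0.29 with MYOD1, -0.27 with LMCD1 and -0.28 with ITGB1, and none of these passed without the wide arrays (-0.21, -0.21 and -0.24).

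In the nerve list, GAD2, which makes the transmitter GABA, had r of -0.53 with MYOD1, -0.49 with LMCD1 and -0.43 with ITGB1 (permutation adjusted p of 0.00015, 0.00015 and 4.29e-04). The GAD2 spot was printed next to that of ITGB1 and had a dye coefficient of -0.47, and what its signal stands for in loin muscle was not tested. KCNA5 and GLRB passed with 0 of the 5 genes by r or rho at the adjusted threshold.

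**Figure D5:**
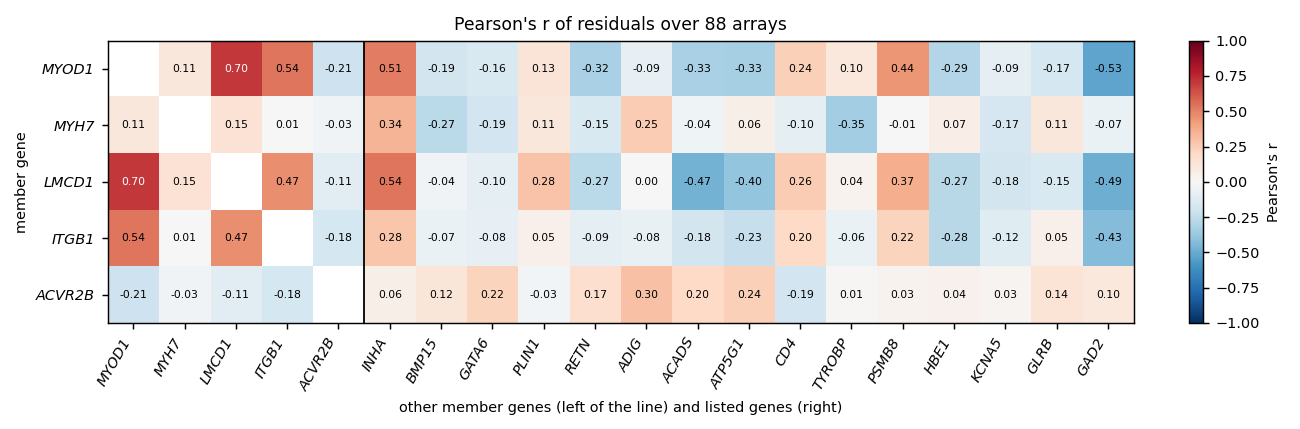
Pearson's r of residuals over 88 arrays between each gene (rows) and the other members and the 15 listed genes with a spot (columns), from blue (negative) to red (positive). The MYOD1, LMCD1 and ITGB1 rows share most signs, the ACVR2B row mostly has the opposite sign, and the MYH7 row is mixed.

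The female and male arrays of a litter were compared over the 44 litters, to ask whether a difference between sisters returned between their brothers. In high-low order the correlation was 0.0813 for MYOD1, 0.0342 for MYH7, -0.12 for LMCD1, -0.16 for ITGB1 and -0.19 for ACVR2B, and 0 of 5 passed (permutation adjusted p from 0.706 to 0.828, 0 with an unadjusted p under 0.05). The median over all spots was -0.06. With the residuals in dye order, ACVR2B had 0.403 and passed (permutation adjusted p = 0.0349), while the other 4 genes did not.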

How the data were processed

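The authors scanned median spot intensities without background correction, normalized them by lowess within each print tip and by a scale step over the whole array, and then deposited the log2 ratio of each spot and array. These were used as deposited, and 0 value columns were left unused. The version of the probe annotation is not given in the sources used here. Over spots, mean LMA and mean BF ratios had a correlation of -0.07 as deposited and of 0.938 in dye order, so the ratios were read in high-low order with an unstated numerator. The number of arrays limits the precision.

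Spots were named through the platform's probe annotation. Each spot was fitted with limma 3.58.1 (lmFit and eBayes) in R 4.3.3, with terms for dye, LMA and BF, or for dye and each trait and sex, and Benjamini-Hochberg adjustment at 0.05 over 20736 spots. Residuals of this fit gave the spreads and correlations (Python 3.11.15, numpy 2.4.6, scipy 1.17.1), tested with 100000 two-sided permutations. Scripts were tested on simulated data. The genes named are the 5 members, the 3 named spots most like each and the listed genes with a spot. The members and lists were chosen with earlier results of these data known. Blocks of 432 spots were inferred from the spot numbers.

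Litter, taken from the labels, pairs a female with a male array. The median correlation of a litter's arrays was 0.118 in dye order and -0.08 in high-low order, and the litter block was fitted in dye order (consensus correlation 0.126). Alternatives were litter blocks, arrays of 1 trait or sex, array weights, other scalings, no dye term, a filter on spread, ratios read in dye order and omission of the wide arrays. Single dye orders, removed components, the order of spreads, spreads within trait or sex, residuals in dye order differences of correlations and listed genes without the wide arrays were chosen after seeing the data. Control spots were not told apart and stayed in the fit.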

Additional observations from a re-analysis of the deposited data

Results flagged for a closer look

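The correlation of ITGB1 with ACVR2B differed between the traits in a test of the difference itself, the only 1 of 20 such comparisons (10 pairs of genes, LMA against BF and male against female) that passed. It was -0.38 over LMA arrays and 0.166 over BF arrays, a difference of -0.55 (permutation of the trait labels over litters, p = 0.0023, adjusted p = 0.046). Without the wide arrays the difference was -0.56 (permutation adjusted p = 0.159), and on ranks it was -0.56 (permutation adjusted p = 0.0644), so the call did not hold under either.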

How the results depend on the processing

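The counts for LMA, BF and the sexes stayed at 0 under every alternative but 1, of 20736 spots or of the 13824 left by the filter on spread. With litter as a random replicate block the limma counts were 0 for LMA (1155 at an unadjusted p under 0.05), 0 for BF (757) and 0 for LMA minus BF (953), and 12225 for dye, and with litter as a fixed block 0 for the sexes (1260 in LMA, 739 in BF), so the block changed no call of a member. The exception was reading the ratios in dye order, which gave 10503 spots for LMA and 9411 for BF, among them MYOD1 for LMA and MYH7 for BF (limma adjusted p = 0.0268 and 0.00913), and carries the dye effect into the trait. Over the other alternatives, the unadjusted counts ran from 582 to 1155 for LMA and from 520 to 1460 for BF, the lower ends being those of the filter. With array weights the dye term of ACVR2B passed (limma adjusted p = 0.0173). The spread of MYH7, LMCD1, ITGB1 and ACVR2B by median absolute deviation was above 97.7%, 99.9%, 99.3% and 52.2% of spots. With LMA arrays only, 5 pairs of genes passed, as MYOD1 and ITGB1 then did with ACVR2B (r of -0.35 and -0.38). Litter agreement passed for 1 gene, ACVR2B, in dye order with no term removed and for 1, the same gene, with residuals turned to dye order.

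MYOD1 with LMCD1 passed under all 14 alternatives (r from 0.450 to 0.830), MYOD1 with ITGB1 under 14 (0.303 to 0.559) and LMCD1 with ITGB1 under 11 (0.20 to 0.552). Signs turned for coefficients that did not pass, and the cause was not tested. In female arrays these were LMA for MYOD1 (0.078) and ITGB1 (0.0025) and BF for ACVR2B (0.00035). In male arrays they were LMA for LMCD1 (-0.14) and BF for MYOD1 (-0.025) and ITGB1 (-0.029). With array weights they were LMA for ACVR2B (-0.0015) and male minus female in LMA for MYH7 (0.031) and ACVR2B (0.0055), and for MYH7 also without the wide arrays (0.060). In dye order they were LMA for LMCD1 (-0.082) and ACVR2B (-0.011) and BF for MYOD1 (-0.16) and LMCD1 (-0.072).

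Correlations near 0 turned as well. MYH7 with ITGB1 was -0.016 in dye order and -0.032 in high-low order with no term removed, -0.10 in BF, -0.093 in female arrays, -0.065 over litter means, -0.065 with arrays divided by their MAD, -0.13 without the wide arrays, -0.0017 without the 2 arrays farthest out, -0.11 and -0.25 without 1 and 3 leading components and -0.26 with the high pig in Cy3. MYOD1 with MYH7 was -0.0018 in high-low order with no term removed, -0.0018 with the MAD, -0.033 and -0.15 without 1 and 3 components and -0.029 with the high pig in Cy3. MYH7 with ACVR2B was 0.029 in LMA, 0.011 in female arrays, 0.063 with the MAD, 0.0050 without the 2 farthest, 0.022 and 0.065 without 1 and 3 components and 0.179 with the high pig in Cy3. LMCD1 with ACVR2B was 0.040 in BF, 0.0087 over litter means, 0.094 and 0.171 without 1 and 3 components and 0.019 with the high pig in Cy5. MYOD1 with ACVR2B was 0.056 in BF and 0.049 without 3 components, ITGB1 with ACVR2B 0.166 in BF, and MYH7 with LMCD1 -0.10 without 3 components.

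Litter agreement turned for MYOD1 without the litters of the wide arrays (-0.19), in dye order with no term removed (-0.027), with residuals turned (-0.027) and in BF litters (-0.032). In BF litters it also turned for MYH7 (-0.10), LMCD1 (0.295) and ITGB1 (0.0068). In dye order with no term removed and with residuals turned it was 0.235 and 0.254 for LMCD1, 0.073 and 0.087 for ITGB1 and 0.389 and 0.403 for ACVR2B. The LMA minus BF spread within male arrays was -0.032 for MYOD1, 0.014 for MYH7 and -0.030 for LMCD1. The male minus female spread was -0.089 for MYOD1 and -0.11 for LMCD1 within LMA and -0.00073 for MYH7 within BF.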
